A study of Macaca fascicularis with 23 samples.

Results

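JAK1, PIM1, CISH, IL6R and MCL1 were followed as genes of the signalling route from leukaemia inhibitory factor (LIF) through the JAK kinases, and these 5 genes were taken from the 8415 genes analysed. JAK1, PIM1, CISH and IL6R (gene IDs 102123983, 102135814, 102119548 and 102116430) were found by name. The annotation used here gives IL6R another gene ID, so its row was taken as IL6R only on the name in the table. MCL1 was listed only by its gene ID, 101925224, and was matched through the annotation. The libraries were SC3-seq libraries, which read the 3′ ends of amplified cDNA, of cynomolgus monkey (Cm, Macaca fascicularis) pluripotent stem cells (PSCs). There were 21 of them, from 7 cell lines in 3 media, with 1 library for each line and medium. The other 2 libraries came from cultured somatic cells of liver and stomach.

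CMK6, TRSK and CMK9 were the 3 ESC lines. The 4 iPSC lines share a donor, a female foetus, with iPS-L3 and iPS-L6 made from its liver and iPS-S6 and iPS-S12 from its stomach. They were generated with episomal vectors for L-MYC, LIN28, KLF4, SOX2, OCT3/4 and a p53 hairpin. The study detected an episome with OCT3/4 and the hairpin in iPS-L3, iPS-L6 and 1 stomach line, which its text gives as iPS-S6 and a figure legend as iPS-S12. Primed PSCs grew in bFGF/KSR medium with 4 ng/ml bFGF and no LIF, before the conversion vectors were introduced. Naïve-like PSCs carried doxycycline (Dox)-inducible human KLF2 and NANOG, the rtTA activator and an EOS-GFP/puroR reporter, and grew in K5cLD medium, which holds human LIF, 1 µM Dox, Gö6983, forskolin, kenpaullone, CHIR99021 and SB590885. Differentiated cells were the same converted cells in K5c, which lacks LIF and Dox and keeps the chemicals. Some of the ESC lines also carried a DsRed transgene. LIF therefore cannot be told apart from Dox and the induced transgenes in differentiated against naïve-like cells. In naïve-like against primed cells it cannot be told apart from the whole medium and the vectors. Somatic cells grew in serum with hepatocyte and epidermal growth factors.

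LIF belongs to the interleukin-6 family of cytokines. It binds LIFR and the shared subunit gp130 (encoded by IL6ST), and the JAK kinases held by these receptors then phosphorylate STAT proteins, chiefly STAT3, which enter the nucleus and switch on target genes. In mouse ESCs this route sustains naïve self-renewal, whereas primed cells depend on FGF and activin. Inhibitors of the SOCS family, which are themselves induced by STATs, close the loop. Much of the route is set by phosphorylation, which RNA levels do not measure. LIF, LIFR, IL6ST, STAT3 and SOCS3 were not analysed here.

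The deposited unit was RPM, mapped reads scaled to a fixed library total, and values were compared as log2(RPM + 1). The libraries of primed cells held 861000 to 7986000 reads, those of naïve-like cells 902000 to 5619000 and those of differentiated cells 941000 to 5491000, with 1704000 in liver and 3084000 in stomach. A level of 3 reads stood for 0.376 to 3.49 RPM, and 4 PSC libraries were shallow, with 861000 to 942000 reads (primed and naïve-like iPS-L6, differentiated iPS-L3 and iPS-S6). A gene was tested if it passed 4 on the log2 scale in at least 1 PSC library, as 2776 genes did. The 8415 genes analysed held only 24.8% to 27.5% of the library totals. The study counted many more expressed genes at this cut. Shares of all genes below are therefore shares of these 2776, and a gene outside the 8415 was not measured here. Markers of pluripotent cells (6 of 7 listed were found) summed to 779.8 to 2541 RPM in the PSC libraries and to at most 0.649 RPM in the somatic ones. LIN28A and SOX2 made up most of the sum, and their medians were similar in naïve-like and differentiated libraries. Between these the median of POU5F1 fell from 289.4 to 20.2 RPM, of DPPA4 from 156.4 to 29.3 and of L1TD1 from 123.0 to 27.0. DPPA2 fell as well, from 40.6 to 15.2 RPM. Markers of fibroblasts (4 of 8 found) summed to 5162 RPM in the liver and 5128 RPM in the stomach library. In the liver library the hepatocyte markers found (ALB and AFP, 2 of 8 listed) were at 0, and leukocyte markers summed to 44.02 RPM. Gastric markers (5 of 7 found) summed to 451.1 RPM in stomach. Fewer cells of a type and less RNA per cell cannot be told apart in such bulk libraries.

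Of the 5 genes, 4 were tested. JAK1 and MCL1 were above 4 on the log2 scale in 21 of 21 PSC libraries and PIM1 in 19. CISH passed in 3, of which 1 was naïve-like, 2 were differentiated and 0 were primed, so that it entered the test through the conditions in which it was higher. IL6R passed in 0 libraries, with a highest value of 3.06. The question put to them was whether their RNA differed between the medium with LIF and the media without it. JAK1 was lowest in the naïve-like library in 7 of 7 lines. PIM1 was lower in differentiated than in primed cells, neither of which received LIF.

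JAK1, the kinase that gp130 receptors use most, had 52.3 RPM in primed CMK6, 56.4 in TRSK, 40.8 in CMK9, 60.9 in iPS-L3, 58.1 in iPS-L6, 66.4 in iPS-S6 and 122.7 in iPS-S12. In naïve-like cells, in the same order of lines, it had 48.5, 39.4, 29.4, 27.6, 23.3, 32.7 and 58.0 RPM. In differentiated cells it had 59.4, 47.2, 53.6, 34.0, 35.6, 36.1 and 83.3 RPM. The level was below that of primed cells in every line on conversion, and above the naïve-like level in every line after LIF and Dox were removed, although the groups overlapped. Primed iPS-S12 was the highest of all PSC libraries.

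By limma, JAK1 fell from primed to naïve-like cells by 0.79 on the log2 scale (standard error 0.23, adjusted p = 0.0216, lower in 7 of 7 lines, as were 6.3% of genes). Of the 2776 genes, 19.2% were called in this comparison, 8.18% lower and 11.1% higher. The exact permutation test over libraries gave p = 0.00641 for JAK1, and sign flips within the lines gave p = 0.0156, the smallest that 7 lines allow (exact, two-sided, 20 tests of each kind, unadjusted). Against the mean of both media without LIF, naïve-like JAK1 differed by -0.61 (standard error 0.20, adjusted p = 0.042), where 16.9% of genes were called, 7.31% lower and 9.62% higher. The comparisons share libraries. From naïve-like to differentiated cells JAK1 changed by 0.42 (standard error 0.23, adjusted p = 0.263), higher in 7 of 7 lines, as were 9.11% of genes (exact sign flips, p = 0.0156; exact permutation over libraries, p = 0.117). It missed the threshold also with the lines paired (adjusted p = 0.0642). In this comparison 14.1% of genes were called, 6.41% higher and 7.71% lower, and 19.8% with the lines paired. A level that was lowest in naïve-like cells in all 7 lines was found for 55 genes (1.98%), of which JAK1 was one. Differentiated against primed cells, JAK1 differed by -0.37 (standard error 0.23, adjusted p = 0.303), and CMK6 and CMK9 were the 2 lines in which it was higher.

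The naïve-like against primed call for JAK1 was lost when any 1 of 3 iPSC lines was left out. Without iPS-L3 the adjusted p was 0.0696 (log2 fold change -0.74), without iPS-L6 0.0694 (-0.71) and without iPS-S6 0.0653 (-0.76). Without the 4 shallow libraries it was 0.0632 (-0.71). It was kept without naïve-like CMK6 and primed iPS-S12, libraries that had stood apart in an earlier look at all genes (-0.70, adjusted p = 0.0375). The call against both media without LIF was lost when any line other than iPS-S12 was left out (adjusted p 0.0575 to 0.11). The annotation places RAVER2 across part of JAK1, and RAVER2 had at most 6.51 RPM in PSC libraries.

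Sums of markers of other cell types also differed between the conditions, each carried by 1 or 2 genes. The fibroblast sum moved in the same direction as JAK1 at both steps. The fibroblast sum ranged from 81.3 to 646.9 RPM over primed libraries (median 126.7), from 9.06 to 96.7 RPM over naïve-like ones (median 72.8) and from 13.8 to 290.3 RPM over differentiated ones (median 147.9). It was lower in naïve-like than in primed cells in 7 of 7 lines and higher in differentiated than in naïve-like cells in 7 of 7. The primed sums were 1.58% to 12.5% of the sum in the liver library, where JAK1 stood at 200.7 RPM. Primed iPS-S12, with the highest JAK1, had a sum of 311.4 RPM, and primed TRSK, with the highest sum, had JAK1 at 56.4 RPM. The hepatocyte markers found (ALB and AFP) summed to 3.10 to 55.8 RPM in primed libraries (median 45.3), to 0 to 33.2 RPM in naïve-like libraries (median 9.44) and to 2.19 to 151.5 RPM in differentiated libraries (median 29.8). Endothelial markers (2 of 5 found) summed to 4.70 to 48.1 RPM in primed libraries, to 1.11 to 11.2 RPM in naïve-like libraries and to 0 to 5.06 RPM in differentiated libraries. Their median fell again from naïve-like (4.91 RPM) to differentiated cells (0 RPM), where JAK1 rose. By their medians, COL1A2 and COL6A1 made up most of the fibroblast sum. From naïve-like to differentiated cells the medians of COL1A2, COL6A1 and PDGFRA rose, while that of COL6A2 fell from 1.895 to 0.666 RPM. The hepatocyte sum was mostly AFP (ALB at most 2.17 RPM in PSC libraries), and the endothelial sum mostly KDR (TIE1 at most 1.14 RPM). Such sums do not show a shift of a whole cell type. The part of these markers' cells in the JAK1 difference was not tested. The plot of JAK1 against the fibroblast sum shows both values for every library.

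**Figure D1:**
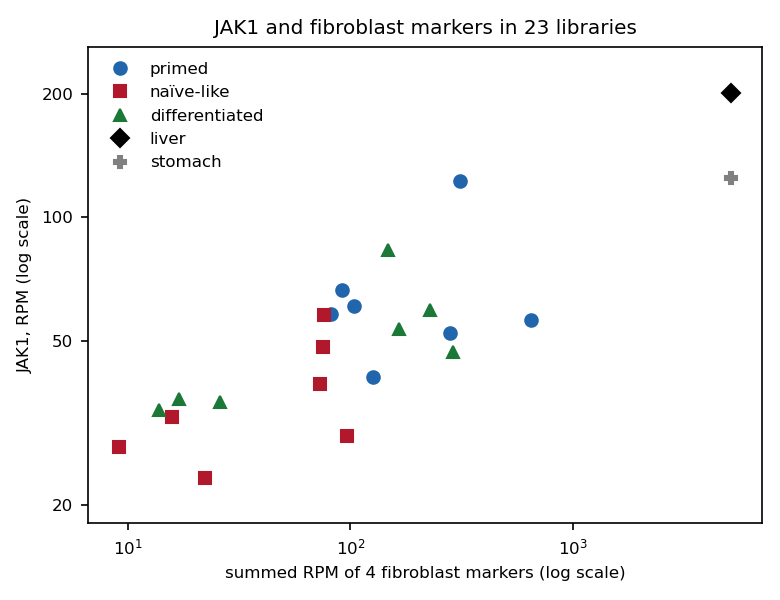
JAK1 in RPM (vertical, log scale) against the summed RPM of 4 fibroblast markers (horizontal, log scale), 1 point per library for 21 PSC and 2 somatic libraries. The naïve-like libraries (9.06 to 96.7 RPM of markers, 23.3 to 58.0 RPM of JAK1) overlap the primed and differentiated ones on both axes, and liver and stomach lie at the high end.

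IL6R, the receptor subunit through which interleukin-6 rather than LIF engages gp130, was low in all libraries. Primed cells had 0.615 RPM in CMK6, 4.41 in TRSK, 0.626 in CMK9, 7.35 in iPS-L3, 0 in iPS-L6, 4.34 in iPS-S6 and 1.77 RPM in iPS-S12. The naïve-like libraries ranged from 0 to 4.17 RPM (median 0.864) and the differentiated ones from 0 to 4.35 RPM (median 2.63). The 3 conditions overlapped. The difference of naïve-like from primed means was -0.48 on the log2 scale (exact permutation test, p = 0.375) and that of differentiated from naïve-like means was 0.54 (exact permutation test, p = 0.24). With no filter on low values, the 95% interval of limma was -1.50 to 0.54 for the first and -0.48 to 1.56 for the second, so that differences of 1 log2 unit were not resolved at this depth.

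CISH is a SOCS-family inhibitor that STAT5, above all, induces. Primed cells had 8.0 RPM in CMK6, 4.41 in TRSK, 0.376 in CMK9, 1.47 in iPS-L3, 6.97 in iPS-L6, 2.17 in iPS-S6 and 5.76 RPM in iPS-S12. In the same order naïve-like cells had 15.6, 6.06, 7.77, 9.06, 5.54, 9.05 and 9.26 RPM. Differentiated cells had 8.16, 15.7, 12.9, 22.3, 5.33, 5.31 and 5.85 RPM. Behind these levels stood 3 to 26 reads per primed library, 5 to 52 per naïve-like library and 5 to 86 per differentiated library. CMK9 and iPS-L3 had the lowest primed values and the largest rises, while iPS-L6 went slightly the other way.

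CISH was higher in naïve-like than in primed cells by 1.14 (log2, standard error 0.40, adjusted p = 0.0489 by limma) and in 6 of 7 lines (exact permutation test, p = 0.0134; exact sign flips, p = 0.0312). In differentiated against primed cells it was higher by 1.27 (standard error 0.40, adjusted p = 0.036), again in 6 of 7 lines (exact permutation test, p = 0.021; exact sign flips, p = 0.0781). There 13.4% of genes were called, 6.27% higher and 7.13% lower. CISH entered the test through naïve-like and differentiated libraries, where it was higher, so that no weight is put on either call. Without LIF and Dox the level differed from the naïve-like one by 0.14 (standard error 0.40, adjusted p = 0.877), with a 95% interval of -0.69 to 0.96. Against both media without LIF it was 0.50 (standard error 0.35, adjusted p = 0.352). The naïve-like call was lost when any line other than iPS-L6 was left out (adjusted p 0.0593 to 0.133) and with no filter on low values (0.1). The differentiated call was lost without TRSK, CMK9, iPS-L3 or iPS-S6 (0.0687 to 0.178) and without the 4 shallow libraries (0.065). Over all alternatives the adjusted p ranged from 0.0333 to 0.133 for the first and from 0.0262 to 0.178 for the second. The annotation places HEMK1 and MAPKAPK3 across CISH, and the reads were assigned without strand. Their own changes from primed to naïve-like cells were 0.47 (adjusted p = 0.172) and 0.58 (adjusted p = 0.137), and whether reads were shared was not tested.

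PIM1, a serine/threonine kinase whose transcription STAT3 and STAT5 activate, had 36.9 RPM in primed CMK6, 22.6 in TRSK, 26.8 in CMK9, 113.2 in iPS-L3, 93.0 in iPS-L6, 46.9 in iPS-S6 and 46.9 RPM in iPS-S12. In the same order it had 36.7, 21.6, 27.6, 38.9, 27.7, 26.9 and 44.1 RPM in naïve-like cells. In differentiated cells it had 39.8, 15.1, 12.02, 13.8, 21.3, 29.7 and 19.3 RPM. The 3 ESC lines and iPS-S12 kept nearly the same level on conversion, and primed iPS-L3 and iPS-L6 stood above all other libraries.

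PIM1 fell from primed to differentiated cells by 1.21 on the log2 scale (limma, standard error 0.31, adjusted p = 0.0102), in 6 of 7 lines (exact permutation test, p = 0.0105; exact sign flips, p = 0.0312). CMK6 was the line in which it was not lower. Without iPS-L3 the change was -0.92 (adjusted p = 0.0659) and without the 4 shallow libraries -1.06 (adjusted p = 0.0618). The steps between were about equal, and neither was called by limma. Naïve-like against primed cells differed by -0.59 (standard error 0.31, adjusted p = 0.189, lower in 6 of 7 lines) and differentiated against naïve-like cells by -0.62 (standard error 0.31, adjusted p = 0.203, lower in 5 of 7 lines). Unadjusted, the first gave p = 0.118 by exact permutation and p = 0.0469 by exact sign flips. The second gave p = 0.0425 by exact permutation and p = 0.0625 by exact sign flips. Naïve-like cells lay near the mean of the media without LIF, with a difference of 0.01 (standard error 0.27, adjusted p = 0.983) and a 95% interval of -0.54 to 0.57.

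MCL1, an anti-apoptotic member of the BCL2 family and a target of STAT3, had 282.1 RPM in primed CMK6, 170.2 in TRSK, 162.3 in CMK9, 461.1 in iPS-L3, 440.4 in iPS-L6, 302.7 in iPS-S6 and 257.8 RPM in iPS-S12. Naïve-like cells had, in the same order, 261.4, 167.9, 213.3, 184.7, 178.4, 188.3 and 231.9 RPM. Differentiated cells had 223.0, 177.6, 199.1, 201.9, 172.8, 134.8 and 214.6 RPM. Primed iPS-L3 and iPS-L6 were again the highest libraries. The log2 spread over lines was 0.59 (SD) in primed cells, and it was 0.23 and 0.25 in naïve-like and differentiated cells.

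By limma, MCL1 differed by -0.46 in naïve-like against primed cells (standard error 0.19, adjusted p = 0.101, lower in 6 of 7 lines) and by -0.56 in differentiated against primed cells (standard error 0.19, adjusted p = 0.0524, lower in 5 of 7 lines). With the cell lines paired in a replicate block the latter passed the threshold (adjusted p = 0.0307), as it did with library centring (adjusted p = 0.038), and with the block 21.1% of genes were called. The paired change from primed to naïve-like cells did not (adjusted p = 0.0665), where 26.1% of genes were called. Without CMK9 both changes passed it, at -0.60 (adjusted p = 0.0361) and -0.71 (adjusted p = 0.0183). Without TRSK the second did too, at -0.67 (adjusted p = 0.0309). Unadjusted, the first gave p = 0.0857 by exact permutation and p = 0.141 by exact sign flips. The second gave p = 0.039 by exact permutation and p = 0.109 by exact sign flips. Removal of LIF and Dox gave -0.11 (standard error 0.19, adjusted p = 0.778), with a 95% interval of -0.50 to 0.29. The levels of all genes across lines and conditions are drawn in the plot of the 23 libraries, and the fitted changes in the plot of fold changes.

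**Figure D2:**
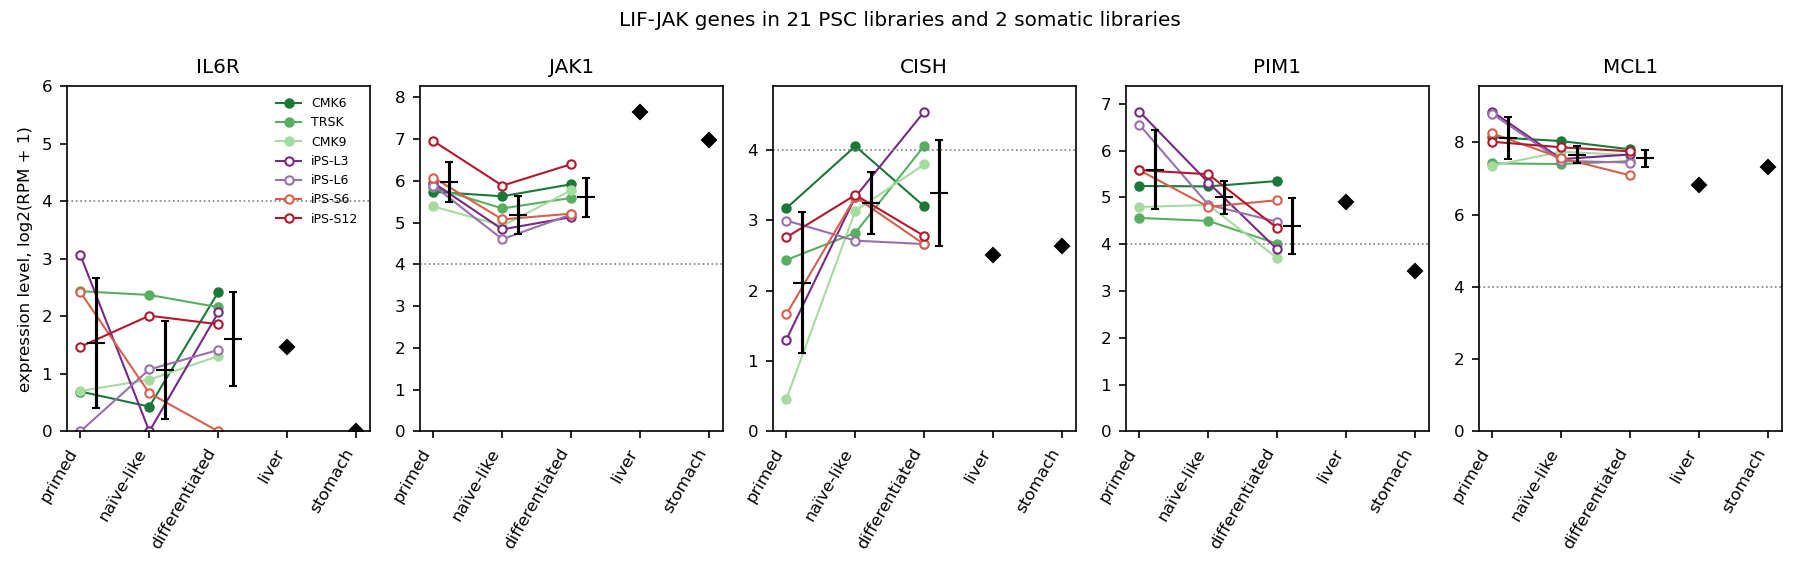
Expression as log2(RPM + 1) of the 5 genes, 1 panel per gene, in primed, naïve-like and differentiated libraries and in liver and stomach. Lines join the 3 libraries of a cell line (filled points ESC, open points iPSC), black bars are means with SD over 7 lines, diamonds are single somatic libraries, and the dotted line marks the value of 4 needed for testing. JAK1 dips in naïve-like cells in all 7 lines, and IL6R stays under 4 throughout.

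**Figure D3:**
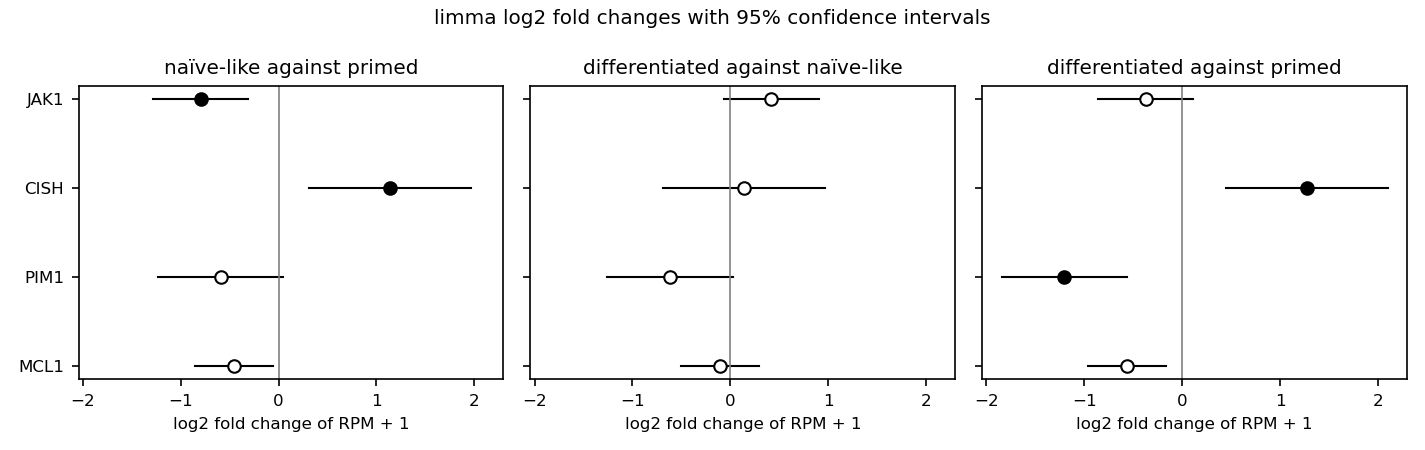
Log2 fold changes from limma (horizontal axis) with 95% confidence intervals for the 4 tested genes, 1 panel per comparison, with filled points for adjusted p under 0.05. JAK1 (-0.79) and CISH (1.14) are filled for naïve-like against primed, PIM1 (-1.21) and CISH (1.27) for differentiated against primed, and no point is filled for differentiated against naïve-like. CISH entered the test through the conditions in which it was higher.

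The conversion response was then compared between ESC and iPSC lines. All iPSC lines share a donor, so that cell origin cannot be told apart from donor in these comparisons. In ESC lines JAK1 changed by -0.36 ± 0.22 from primed to naïve-like cells (SD, n = 3 lines, -0.51 to -0.11). In iPSC lines it changed by -1.12 ± 0.12 (SD, n = 4 lines, -1.28 to -1.001). The 2 sets of lines did not overlap, as was so for 6.41% of the genes, and the responses differed by 0.76 (exact permutation test, unadjusted p = 0.0286, which is the lowest value possible with 3 lines against 4). In the fit without the naïve-like CMK6 and primed iPS-S12 libraries, where neither line keeps both conditions, the difference was 0.35, and with each line left out whole it was 0.63 to 0.83. Across all genes the interaction did not pass for JAK1 (limma, adjusted p = 1). It passed for 0 of 2776 genes (0.0%), with 133 at an unadjusted p under 0.05. The paired fit also called 0 genes.

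PIM1 changed by -0.01 ± 0.05 in the 3 ESC lines and by -1.02 ± 0.74 in the 4 iPSC lines (exact permutation test, p = 0.0571, adjusted p of the limma interaction 0.992). MCL1 changed by 0.09 ± 0.27 and -0.86 ± 0.56 (exact permutation test, p = 0.0571, adjusted p of the limma interaction 0.91). For PIM1 and MCL1, too, the ESC and iPSC changes did not overlap, as for 6.41% of all genes. CISH rose by means of 1.31 and 1.00, a difference of 0.31 (exact permutation test, p = 0.743). By their means, the gap between ESC and iPSC lines was wider in primed than in naïve-like cells for PIM1, MCL1 and JAK1. Primed PIM1 was 4.87 ± 0.35 in ESC and 6.14 ± 0.65 in iPSC lines, and naïve-like PIM1 was 4.86 ± 0.37 and 5.11 ± 0.35 (log2 scale, SD). Primed MCL1 was 7.64 ± 0.44 and 8.48 ± 0.41, and naïve-like MCL1 was 7.73 ± 0.32 and 7.61 ± 0.17. Primed JAK1 was 5.66 ± 0.24 and 6.22 ± 0.50, and naïve-like JAK1 was 5.30 ± 0.35 and 5.10 ± 0.56. The difference between ESC and iPSC lines in primed cells missed the threshold for each (limma, adjusted p = 0.0904 for PIM1, 0.0573 for MCL1 and 0.427 for JAK1), where 1.59% of genes were called. This comparison of levels was chosen after their values were seen. After removal of LIF and Dox, the ESC and iPSC changes of JAK1 were 0.46 ± 0.33 and 0.38 ± 0.21 (exact permutation test, p = 0.771). The plot of changes by line shows these responses.

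**Figure D4:**
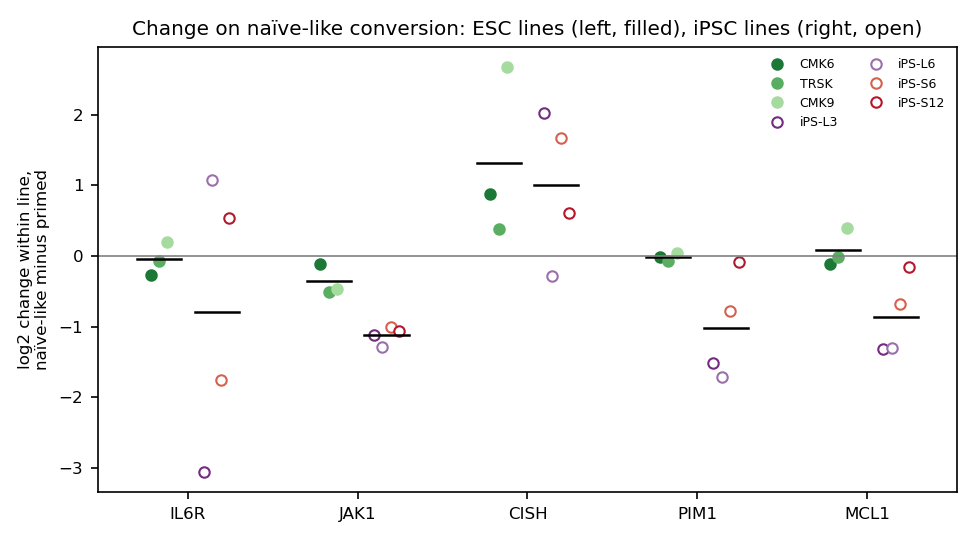
Change in log2(RPM + 1) from primed to naïve-like cells within each line (vertical axis) for the 5 genes, with ESC lines as filled points on the left, iPSC lines as open points on the right and bars at their means. For JAK1 the 4 iPSC lines (-1.28 to -1.001) lie below the 3 ESC lines (-0.51 to -0.11), and for PIM1 and MCL1 iPS-L3 and iPS-L6 lie lowest.

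The rest of the route was represented by a list of 86 other genes of interleukin-6 family signalling, of which 22 were found and 11 were expressed and tested. From primed to naïve-like cells 1 of the 11 rose and 3 fell, with a median log2 fold change of -0.46 beside 0.06 for all genes tested, of which 11.1% rose and 8.18% fell. CCND3, a cyclin of the G1 phase, rose from a median of 14.2 to 38.0 RPM (1.09, adjusted p = 0.00907, limma). RNA of the leptin receptor and of a subunit of the interferon-γ receptor fell. LEPR, which is related to gp130, went from a median of 33.2 to 19.3 RPM (-0.74, adjusted p = 0.0221), and IFNGR1, which signals through JAK1, from 116.1 to 61.01 RPM (-0.76, adjusted p = 0.0112, lower in 7 of 7 lines). SHC1, an adaptor between receptors and RAS, fell from 258.8 to 158.8 RPM (-0.85, adjusted p = 0.00262, lower in 7 of 7 lines), and its primed libraries (251.7 to 376.5 RPM) all lay above its naïve-like ones (106.5 to 219.0 RPM). Groups without overlap were found for 4.07% of genes.

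After LIF and Dox were removed, 1 of the 11 rose and 0 fell (median -0.04 beside -0.02 for all genes, of which 6.41% rose and 7.71% fell). PIK3R3, a regulatory subunit of PI3-kinase, rose from a median of 3.40 to 14.8 RPM (1.68, adjusted p = 0.0191, higher in 7 of 7 lines). It passed the filter on low values in 3 differentiated, 0 naïve-like and 0 primed libraries, so that it entered the test through the condition in which it was high, and no weight is put on its call. CDKN1A, an inhibitor of the cell cycle, differed by 1.17 (adjusted p = 0.0774, higher in 7 of 7 lines), and with the lines paired its adjusted p was 0.0191. In differentiated against primed cells PIK3R3 was higher (2.18, adjusted p = 0.00291), while IFNGR1 (-1.05, adjusted p = 0.00105) and SHC1 (-0.81, adjusted p = 0.00399) were lower, and the median was -0.41 beside 0.05 for all genes, of which 6.27% rose and 7.13% fell. For LEPR the change was -0.61 (adjusted p = 0.0664, with lines paired 0.0381), and for CDKN1A it was 1.16 (adjusted p = 0.0827, with lines paired 0.0215). Against both media without LIF, CCND3 was the 1 of 11 that passed in the unpaired fit (0.85, adjusted p = 0.0184), where 16.9% of all genes did, 9.62% higher. SHC1 (-0.44, adjusted p = 0.0551) passed with the lines paired (0.00259), where 23.8% of all genes did. IFNGR2 and IFNAR1, further interferon receptor subunits, passed no comparison of conditions, with changes of -0.03 (95% interval -0.77 to 0.70) and 0.28 (-0.32 to 0.89) on conversion. No STAT gene and no JAK gene other than JAK1 was among the 22. Whether the listed genes that were not found were expressed is not known here. The plot of these genes gives all 11 changes.

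**Figure D5:**
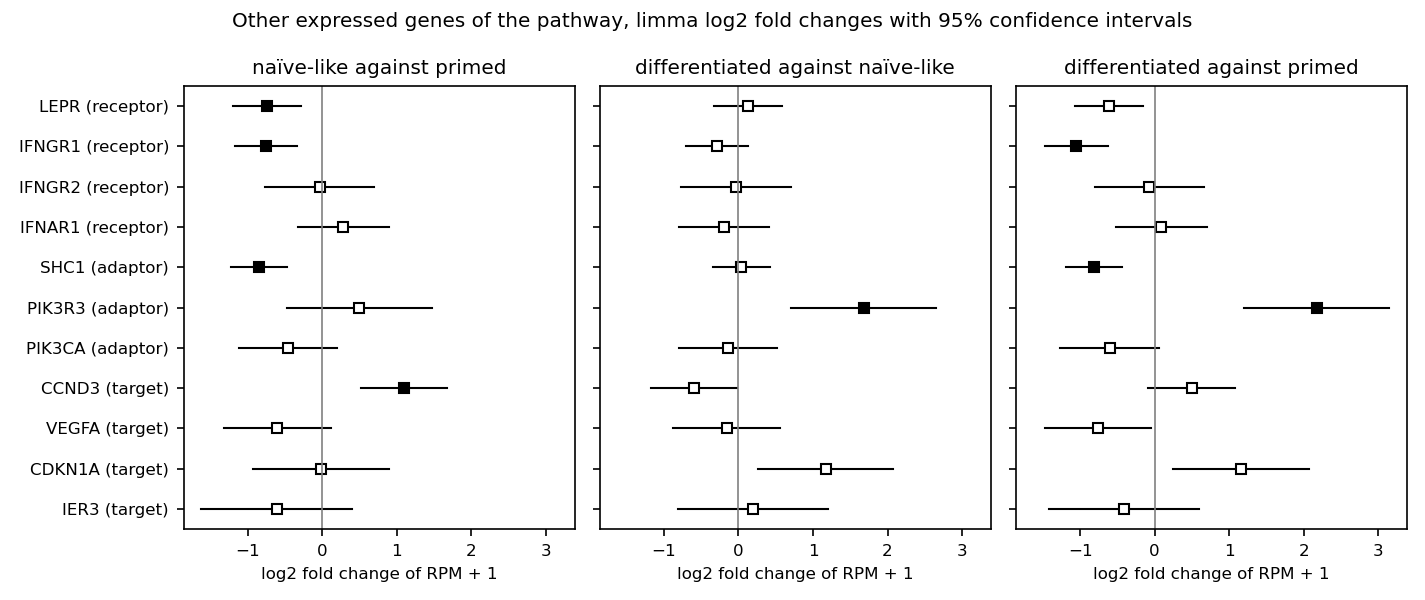
Log2 fold changes from limma (horizontal axis) with 95% confidence intervals for 11 other expressed genes of the route, grouped as receptors, adaptors and targets, 1 panel per comparison, with filled squares for adjusted p under 0.05. LEPR, IFNGR1 and SHC1 are filled on the lower side and CCND3 on the higher side for naïve-like against primed, and PIK3R3 is filled for both comparisons of differentiated cells.

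The somatic libraries, 1 for each organ and so without a test, differed from the PSCs gene by gene. JAK1 was 200.7 RPM in liver (342 reads, exact 95% Poisson interval 180.0 to 223.2) and 124.5 RPM in stomach (384 reads, 112.4 to 137.6), above all 21 PSC libraries, although the stomach interval includes primed iPS-S12. MCL1 was 111.5 RPM in liver (190 reads, 96.2 to 128.6), below all 21 PSC libraries, and 157.3 RPM in stomach (485 reads, 143.6 to 171.9). PIM1 was 28.8 RPM in liver (49 reads, 21.3 to 38.0), near the PSC median of 27.7. In stomach PIM1 was 9.73 RPM (30 reads, 6.56 to 13.9), below all 21 PSC libraries, although the interval includes differentiated CMK9 and iPS-L3. CISH was 4.70 RPM in liver (8 reads, 2.03 to 9.25) and 5.19 RPM in stomach (16 reads, 2.97 to 8.43), within the PSC range. IL6R was 1.76 RPM in liver, from 3 reads, and 0 in stomach, where a count of 0 allows up to 0.973 RPM taken as 3 reads and 1.196 RPM by the upper end of the exact interval. These intervals and limits cover counting error only.

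The genes most like each tested gene over the 21 PSC libraries were found among the 2776, as a description, since the points share lines, media and library depth. JAK1 was nearest to ARPC1B (Pearson r = 0.84 on the log2 scale, and 0.80 once the mean of each condition was removed), PAK2 (0.84 and 0.80) and ECE1 (0.83 and 0.75). PIM1 was nearest to JHDM1D (0.81 and 0.65), RASA2 (0.78 and 0.70) and MCL1 (0.78 and 0.69). MCL1 was nearest to F3 (0.80 and 0.70), ATG5 (0.79 and 0.76) and HIVEP3 (0.79 and 0.71), and PIM1 ranked 7 for it. CISH had weaker neighbours, JAGN1 (0.70 and 0.42), LOC102128522 (0.68 and 0.39) and TMEM45A (0.68 and 0.43). JAK1 stood further from the other tested genes, with r = 0.31 to PIM1, 0.49 to MCL1 and -0.16 to CISH.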

How the data were processed

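From 1 ng of RNA each, the authors made amplified cDNA libraries, sequenced the 3′ ends and, with Cufflinks, derived RPM, reads scaled to the library total. The submitters' processing notes name cutadapt 1.3, TopHat 1.4.1 and Cufflinks 2.2.0. The deposited RPM table has 1 column per library, with no pooling and 0 columns of no sample. Its last row broke off and was left out, leaving 8415 genes, which held 24.8% to 27.5% of the library totals. Of these, 5564 gene IDs matched the RefSeq annotation (of another build, so no coordinates are given). In each library, 86.7% to 92.9% of values were whole multiples, within 0.02, of the value of 1 read, which gave the depth. Since the others were not, no test for counts was run.

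Samples were grouped by the medium and line in their labels. Values were compared as log2(RPM + 1), which understates changes of low genes, with limma 3.58.1 (R 4.3.3), a mean-variance trend and the 3 conditions of 21 libraries in 1 fit, for genes whose value passed 4 in 1 or more PSC libraries, at a Benjamini-Hochberg adjusted p under 0.05 over 2776 genes. The study names tests and repeats for its experiments in general and none for the sequencing data. With 1 library per line and medium, lines are the replicates and p-values measure the spread between lines. Libraries of the same line deviated together from their condition means (mean r = 0.27 over 21 pairs, and -0.04 over 126 pairs of different lines), and the labels name the same line, so a fit with the line as a replicate block was an alternative. Exact permutation tests (3432 divisions of 14 libraries) and exact sign flips (128 assignments) were two-sided, run with numpy 2.4.6 and pandas 2.3.3 under Python 3.11.15. The script was tested on simulated data. The named genes are the 5 genes, those of the pathway list that passed the threshold or are expressed receptors, JAKs or STATs, and the 3 nearest genes of each. SHC1, LEPR and CDKN1A under pairing, and the overlapping genes, were named after their values were seen. The members and lists were chosen with earlier results of these data known. Alternatives were a pseudocount of 0.1, no filter, a filter of 7 libraries, quantile normalization, centring, no trend, the block, 2 conditions in the fit, each line left out, and, chosen after seeing the data, leaving out the 4 shallow libraries or the naïve-like CMK6 and primed iPS-S12 libraries, which had stood apart earlier. The labels name no batch.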

Additional observations from a re-analysis of the deposited data

Results flagged for a closer look

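The JAK1 change from primed to naïve-like cells differed between ESC and iPSC lines by 0.758 on the log2 scale (exact permutation test of 3 lines against 4, two-sided, p = 0.0286, the smallest that this design allows), with -0.36 in ESC and -1.12 in iPSC lines. It was 0.35 in the fit without the naïve-like CMK6 and primed iPS-S12 libraries. It was singled out because the 2 groups' effects differed by a test of the difference itself. The interaction fitted across all genes did not pass (limma, adjusted p = 1, and 0.403 with the lines paired in a replicate block). ESC and iPSC changes without overlap were found for 6.41% of all genes, and also for PIM1 and MCL1. Their differences were larger, 1.01 for PIM1 and 0.95 for MCL1 (exact permutation test, p = 0.0571 for each). Neither interaction passed (limma, adjusted p = 0.992 and 0.91). The exact p-values are not adjusted for the other genes and quantities compared between ESC and iPSC lines. The iPSC lines share a donor, so that cell origin cannot be told apart from donor. In 15 groups of 7 libraries (5 genes in 3 conditions), 0 libraries stood apart by Dixon's criterion, where chance gives about 0.75.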

How the results depend on the processing

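Beside 19.2% of all genes, 2 of the 4 tested genes, JAK1 and CISH, were called in naïve-like against primed cells. The number was 1 with a pseudocount of 0.1, no filter, the filter of 7 libraries, library centring, 2 conditions in the fit, the same sign required in every line, without the 4 shallow libraries or without the naïve-like CMK6 and primed iPS-S12 libraries, and 0 to 2 when a line was left out. In differentiated against primed cells, beside 13.4% of all genes, 2 were called, PIM1 and CISH. That number was 3 with library centring or the replicate block, 1 with no filter, the filter of 7 libraries or 2 conditions in the fit, 0 without the shallow libraries or with the same sign required in every line, and 0 to 2 when a line was left out. Against both media without LIF, beside 16.9% of all genes, 1 was called, 0 with no filter, no trend or without the shallow libraries, and 0 to 1 when a line was left out. With the filter of 7 libraries CISH was not tested, and the other causes were not tested. With the line as a replicate block, MCL1 in differentiated against primed cells (adjusted p = 0.0307) was the only one of the tested changes of the 5 genes to change its call.

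Signs turned for changes that passed no threshold. CISH in differentiated against naïve-like cells (0.14) was -0.0404 without the shallow libraries and -0.0478 to 0.30 when a line was left out. PIM1 against both media without LIF (0.01) was -0.0284 with quantile normalization, -0.0311 with centring, -0.0261 without the CMK6 and iPS-S12 libraries and -0.0826 to 0.13 when a line was left out. The ESC minus iPSC difference of CISH (0.31) was -0.12 without the shallow libraries, -0.24 without the CMK6 and iPS-S12 libraries and -0.37 to 0.78 when a line was left out. Over all genes, calls in naïve-like against primed cells fell from 534 to 300 without iPS-L3, 355 without iPS-L6 and 351 without iPS-S6. In differentiated against naïve-like cells they fell from 392 to 220 without CMK6. In differentiated against primed cells they went from 372 to 585 with the block, 240 without iPS-S6 and 222 without the shallow libraries. Against both media without LIF they went from 470 to 300 without CMK6 and 297 without the CMK6 and iPS-S12 libraries. The ESC and iPSC interactions called 8 and 5 genes with no filter, where 0 were called. IL6R and CISH rest on few reads per library.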
